A study of Mus musculus with 12 samples.

Results

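The cells described here are the tumour cells of Clone EM2, a clone grown from 1 cell of 4T1, a murine breast carcinoma line, and implanted in the mammary fat pad of a female BALB/c mouse. They were taken as the cells of the EM2 tumour's unsorted library (Total) that the authors annotated as Tumor. After likely doublets were left out, 3283 such cells remained, which was 33.9% of the 9683 cells of that library (exact 95% interval 33.0 to 34.9) and part of 59028 cells in the 6 Total libraries. They were set against the cells with the same annotation in the tumours of the clones E, EM1, EM3 and M and of the uncloned parental line (Parental 4T1), which held 770, 2851, 1948, 4638 and 5887 cells. All hosts were female BALB/c mice of 9 to 11 weeks, cells were kept in culture before implantation, and the labels name no drug or engineered allele in any group. The 5 clones stand for epithelial, intermediate and mesenchymal states in the study's design. The labels do not say which of these states EM2 was assigned to. Each clone and the parental line gave 1 tumour, so clone, mouse, tumour and library cannot be told apart. No difference below has a replicate check or a p-value, and every interval covers counting error only.

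The 4T1 line stands for triple-negative breast cancer and forms tumours in mice whose immune system is intact. In the epithelial-mesenchymal transition, carcinoma cells give up E-cadherin junctions, claudins and many keratins and take on vimentin, fibronectin and other genes of motile cells, and many tumour cells hold genes of both kinds at once. Carcinoma cells in a growing tumour also run through other programmes, among them cell division, the response to a shortage of amino acids or to unfolded protein in the endoplasmic reticulum, inflammatory signalling through NF-kappaB, and the immediate early genes that follow a growth stimulus or tissue handling.

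The annotation was checked against markers. Levels are in CPM, the gene's share of all UMIs summed over a group of cells on the usual 1000000 scale. A UMI is a tag that marks 1 captured molecule. The EM2 tumour cells held 49826834 UMIs, with a median of 14740 per cell (5th to 95th percentile 4082 to 27094). The tumour cells of the other 5 tumours had medians from 6409.5 in E to 15268 in EM3. Krt8, a simple-epithelial keratin, was at 2720.1 CPM in EM2 tumour cells and at 93.0 in the macrophages of the same library. Its partner Krt18 was at 1062 and 40.9 CPM, the secreted protease inhibitor Serpine2 at 1067 and 47.0, and the homeobox factor Pitx1 at 34.4 and 0.905. All 4 markers were therefore higher in the annotated tumour cells than in the macrophages. Markers of other cell types were low. The 9 macrophage markers summed to 118.4 CPM, 0.518% of their level in EM2 macrophages, the 4 pan-leukocyte markers to 35.46 CPM, 0.651% of their level in T and NK cells, and the 6 fibroblast markers to 221.0 CPM, 0.140% of their level in fibroblasts. A Ptprc (CD45) UMI was seen in 121 cells (3.69%). The EM2 Total library shared 13.4% to 14.0% of the bead barcodes of the EM2 CD45 library and of both EM1 libraries, against 1.15% to 1.42% for the other libraries. Whole cell barcodes were shared only with the Total libraries of EM3 (99) and M (189). EM1 was thus the only other tumour whose Total library shared bead barcodes with EM2 at the higher rate (13.5%). What the sharing reflects was not tested.

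Few genes set the EM2 tumour cells apart from all 5 other tumours at once. Of 5830 genes with at least 50 CPM in at least 1 tumour, 4 were at least 2-fold higher in EM2 than in every other tumour (0.0686%) and 3 were at least 2-fold lower (0.0515%). Ratios are on the log2 scale after 10 CPM was added to each value, which understates the difference of low genes. The 4 higher genes were Cebpd, Ripk2, Tnip3 and Rab32, and the 3 lower ones were Egr1, Edil3 and Miga1. With cells thinned to 3000 UMIs Edil3 lost its call, with a log2 ratio closest to 0 of -0.84, and Rab32 lost its own. With the mean of single-cell CPM and with only cells of 5000 to 20000 UMIs 2 of the 4 higher genes remained, Cebpd and Ripk2. Against at least 4 of the 5 tumours, 17 genes were higher (0.292%) and 13 lower (0.223%).

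Cebpd encodes C/EBP-delta, a transcription factor induced by inflammatory signals. It was at 459.7 CPM in EM2 (counting interval 453.7 to 465.6), against 77.5 in E, 177.2 in EM1, 130.6 in EM3, 194.6 in M and 181.9 in Parental 4T1. The EM2 value stood alone, and the nearest tumour, M, lay 1.20 lower on the log2 scale. After every cell was thinned to 3000 UMIs, 43.0% of EM2 tumour cells had a Cebpd UMI, against 9.74% to 26.6% in the other tumours. The unthinned share in EM2 was 68.2%. Macrophages of the EM2 library, with a median of 5744 UMIs, gave 13.6%. In the other cell classes of that library Cebpd reached 532.5 CPM in endothelial cells and 312.2 CPM in fibroblasts, so the gene was not confined to tumour cells.

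Ripk2 encodes the kinase that passes signals from the NOD receptors of bacterial peptides to NF-kappaB. Its level was 165.8 CPM in EM2, against 58.4 in E, 65.5 in EM1, 58.0 in EM3, 67.2 in M and 70.1 in Parental 4T1. The other 5 tumours lay close together and EM2 stood 1.13 above the highest of them on the log2 scale. Tnip3 encodes a partner of the NF-kappaB inhibitor A20. It was at 56.3 CPM in EM2, 12.6 in E, 8.68 in EM1, 2.63 in EM3, 10.2 in M and 22.1 in Parental 4T1. Rab32, a small GTPase of lysosome-related organelles and mitochondria, was at 50.1 CPM in EM2 and at 12.8 to 20 CPM elsewhere. Tnip3 and Rab32 reached the 50 CPM floor in EM2 alone, so as tested genes they could only be highest in EM2. Both lay only just past the 2-fold limit against Parental 4T1, with log2 ratios of 1.05 for Tnip3 and 1.00 for Rab32. The Rab32 ratio was 0.99 with likely doublets kept and 0.89 after thinning.

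**Figure D1:**
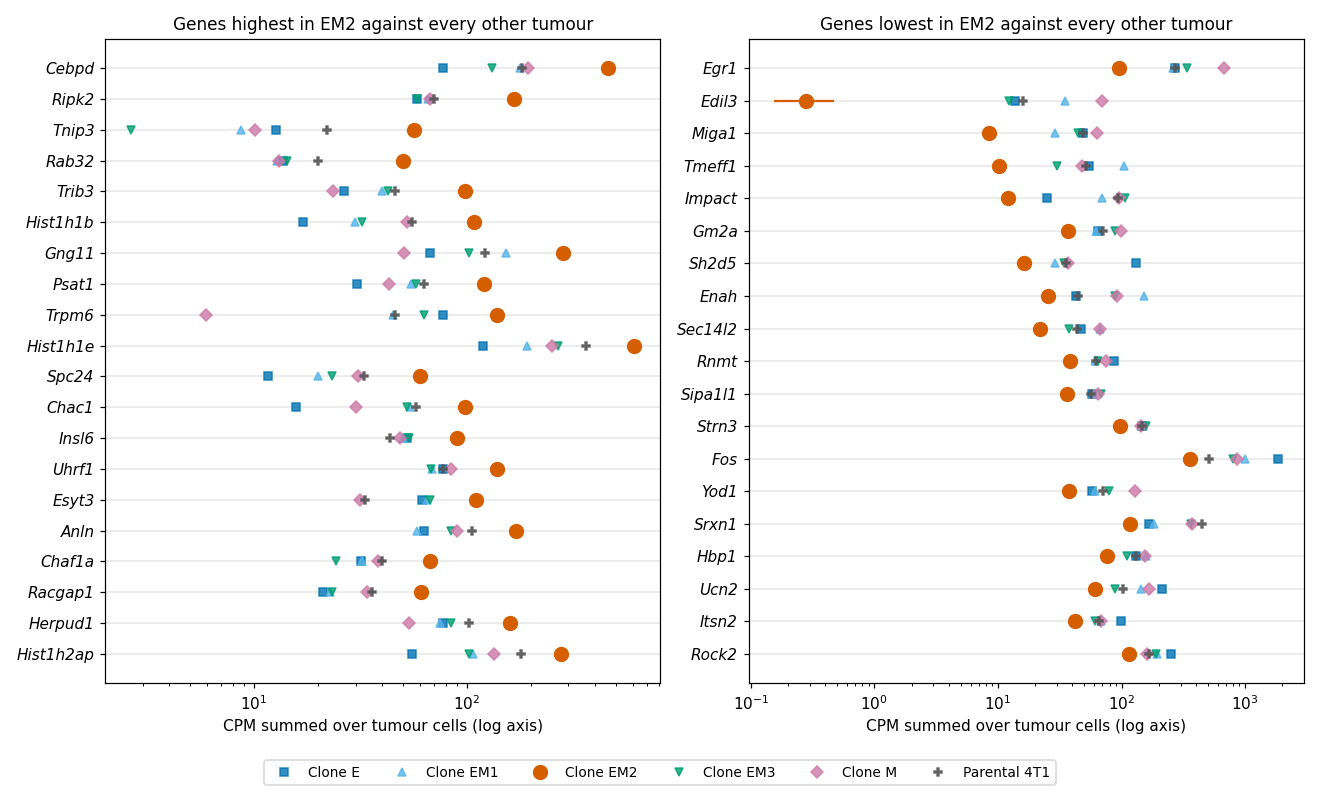
CPM summed over the annotated tumour cells of each tumour on log axes, for genes with the highest (left) and the lowest (right) EM2 value relative to all 5 other tumours. Large orange circles are EM2 and bars are counting intervals where they are wider than the symbol. Cebpd at 459.7 CPM lies to the right of all other tumours, and Edil3 at 0.281 CPM to the left.

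Below these 4, the genes with the next highest EM2 values relative to every other tumour included Trib3, Psat1, Chac1 and Herpud1 of the amino acid and endoplasmic reticulum stress responses. Cells short of an amino acid, or with unfolded protein, translate the factor ATF4. ATF4 with its partners binds a composite element, whose core can be written TGATGNAA, in the promoters of many target genes. The promoters of 4 list members that were highest in EM2 and hold this core, on either strand, are printed to show where the letters lie (RefSeq, GRCm38.p6, written 5′ to 3′ on the gene's strand, the match in capitals). TTNCATCA is the same core on the opposite strand. Chac1 (chr2:119350992-119351241, plus strand) has the core 193 bases before the gene start. Asns (chr6:7693210-7693459, minus strand) has it 23 bases before, and Herpud1 (chr8:94386179-94386428, plus strand) 112 bases before. In Trib3 (chr2:152344028-152344057, minus strand) the core begins 14 bases after the start.
Chac1: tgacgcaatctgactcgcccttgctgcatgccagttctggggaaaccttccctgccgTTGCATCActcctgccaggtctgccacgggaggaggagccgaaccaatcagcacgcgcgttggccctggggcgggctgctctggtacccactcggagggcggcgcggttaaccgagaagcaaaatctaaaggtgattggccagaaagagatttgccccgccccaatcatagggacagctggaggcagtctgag
Asns: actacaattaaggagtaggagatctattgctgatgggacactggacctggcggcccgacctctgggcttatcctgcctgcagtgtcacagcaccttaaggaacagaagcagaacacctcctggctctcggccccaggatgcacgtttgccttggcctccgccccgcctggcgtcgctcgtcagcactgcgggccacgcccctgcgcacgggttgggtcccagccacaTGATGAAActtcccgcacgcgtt
Herpud1: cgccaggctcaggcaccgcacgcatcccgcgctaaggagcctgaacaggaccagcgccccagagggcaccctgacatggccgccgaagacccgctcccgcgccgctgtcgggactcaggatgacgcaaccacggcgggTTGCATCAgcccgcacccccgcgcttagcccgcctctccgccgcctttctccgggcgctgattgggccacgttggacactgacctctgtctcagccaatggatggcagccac
Trib3: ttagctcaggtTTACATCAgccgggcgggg

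The core was present within 300 bases around the start (250 before, 50 after) in 1096 of 27025 promoters (4.06%). It was present in 5 of the 22 stress list genes with a promoter sequence, and in 4 of the 9 of them that were highest in EM2. A match describes letters and not binding, and the motif was chosen after the values were seen.

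Among the genes of that list, those of amino acid and folate metabolism were at their highest in EM2. Trib3, a pseudokinase that restrains the ATF4 response, was at 98.1 CPM in EM2, against 26.5 in E, 39.9 in EM1, 42.5 in EM3, 23.5 in M and 46.0 in Parental 4T1. Its EM2 level was the only one above 50 CPM, so as a tested gene it could only be highest in EM2. The log2 ratio of Trib3 passed 1 against every tumour but Parental 4T1 (0.95). Chac1, which degrades glutathione, was at 97.9 CPM, against 15.8, 54.3, 52.1, 30.2 and 57.7 in the same order. Psat1, of serine synthesis, was at 119.9 CPM, against 30.6, 54.4, 57.5, 43.2 and 62.7. The asparagine synthetase Asns was at 162.7 CPM against 39.3 to 113.2, the mitochondrial folate enzyme Mthfd2 at 151.7 against 34.9 to 101.2, and its neighbour in that pathway Shmt2 at 189.1 against 79.8 to 142.9. For each of these 5 enzymes E was the lowest tumour and EM2 the highest. The first serine enzyme Phgdh was highest in EM2 by a small margin (115.0 CPM against 99.5 in EM3).

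Genes of protein folding in the endoplasmic reticulum were mixed. Herpud1, of endoplasmic reticulum-associated degradation, was at 159.2 CPM against 53.6 to 102.1. By contrast the chaperone Hspa5 was lowest in EM2 (776.5 CPM against 790.9 to 1122), as were the disulphide isomerase Pdia6 (373.6 against 451.7 to 716.5) and the co-chaperone Dnajb9 (56.8 against 77.3 to 97.6). In all, 10 of the 22 tested list genes had their highest level of the 6 tumours in EM2 and 3 their lowest. Over all 5830 genes, 15.1% were highest in EM2 and 11.3% lowest. Over the genes tested in each pair of tumours the list medians were 0.53 against E, 0.38 against EM1, 0.24 against EM3, 0.62 against M and 0.11 against Parental 4T1, where the medians over all tested genes were 0.061, 0.021, 0.026, -0.063 and 0.009. These shares of highest genes depend on the scaling: with TMM scaling 28.1% of all tested genes were highest in EM2 and 3.25% lowest, and with median-of-ratios scaling 24.9% and 5.34%.

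Genes of cell division formed the list with the largest share of members at their highest in EM2. Of 10 tested members 8 were highest in EM2 (80.0%, against 15.1% of all tested genes) and none lowest. The proliferation antigen Mki67 was at 127.4 CPM in EM2, against 40.9 in E, 49.6 in EM1, 68.3 in EM3, 100.3 in M and 98.5 in Parental 4T1. Top2a, the topoisomerase that untangles chromosomes, was at 332.2 CPM against 114.3, 114.2, 166.7, 239.8 and 248.8. Cdk1, the kinase that starts mitosis, was at 163.7 CPM against 46.7, 38.7, 82.6, 111.0 and 129.0. EM2 was highest for all 3 genes, M and Parental 4T1 came next, and E and EM1 were lowest. The list medians were 1.35 against E, 1.21 against EM1, 0.81 against EM3, 0.26 against M and 0.37 against Parental 4T1.

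Of 13 tested genes of DNA replication, 9 were highest in EM2 (69.2%) and none lowest, with list medians from 0.17 (Parental 4T1) to 0.72 (E). Uhrf1, which keeps DNA methylation through replication, was at 138.0 CPM in EM2 against 67.6 to 84.7 elsewhere. The replicative helicase subunit Mcm5 was at 89.0 against 45.4 to 68.9. Some margins were small, as for the nucleotide reductase subunit Rrm2 (58.96 CPM against 58.36 in Parental 4T1). Other genes of chromatin assembly and cytokinesis were among the 20 genes highest in EM2: the linker histones Hist1h1b (107.6 CPM against 16.9 to 54.98) and Hist1h1e (609.6 against 119.2 to 361.4), the kinetochore subunit Spc24 (60.4 against 11.7 to 32.8), Anln (169.5 against 58.1 to 106.1), Chaf1a (67.2 against 24.4 to 39.9) and Racgap1 (60.8 against 21.0 to 35.9). Spc24, Chaf1a and Racgap1 reached the 50 CPM floor in EM2 alone, so as tested genes they could only be highest in EM2. Hist1h2ap belongs to a family of near-identical histone genes, so its value (275.5 CPM against 55.1 to 179.9) is uncertain.

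The share of cells with these transcripts was also highest in EM2. With every cell thinned to 3000 UMIs, 447 of 3176 EM2 tumour cells (14.1%, exact interval 12.9 to 15.3) had at least 10 UMIs of the division list. The shares were 11.0% in M, 9.71% in Parental 4T1, 7.31% in EM3, 4.81% in EM1 and 3.71% in E. In the EM2 library the same limit was reached by 1.06% of fibroblasts (median 11242 UMIs) and 2.81% of macrophages, but also by 64.7% of the 85 T and NK cells deep enough to thin (5.46% of all 1447 unthinned) and by 5.88% of 34 granulocytes. Without thinning the EM2 tumour share was 27.7%, and 247 of the thinned cells lay between 8 and 12 UMIs, near the limit. For the replication list the thinned share was 13.7% in EM2 and 5.26% to 9.70% in the other tumours. The 10-UMI limit was chosen after the values were seen.

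The excess of division transcripts was kept when all cells were thinned to equal depth, and was smaller when cells were filtered by depth. After thinning as above, 6 of 7 tested division genes were highest in EM2 (85.7%, against 14.8% of all tested genes). The list medians were then 1.17 against E, 1.00 against EM1, 0.56 against EM3, 0.34 against M and 0.42 against Parental 4T1. With only cells of 5000 to 20000 UMIs kept, 3 of 6 tested division genes were highest in EM2, and the list medians were 0.52 against E, 0.40 against EM1, 0.26 against EM3, -0.02 against M and 0.17 against Parental 4T1. Under this restriction the median of the division list against M lay just below 0, and 7 of 11 tested replication genes were highest in EM2. The share of all tested genes highest in EM2 under this restriction is not given here, so these counts have no background beside them. Leaving out cells of over 20000 UMIs removes cells by the amount of RNA they hold. The part of this in the result was not tested.

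Sterol and fatty acid synthesis was a further list with most members at their highest in EM2, 11 of 18 (61.1%, against 15.1% of all tested genes), and none lowest. Hmgcs1, an early enzyme of the mevalonate pathway, was at 115.9 CPM in EM2, against 57.8 in E, 70.9 in EM1, 68.3 in EM3, 48.4 in M and 77.9 in Parental 4T1. Fdps, which makes farnesyl diphosphate further along the pathway, was at 150.6 CPM against 58.0, 121.2, 124.0, 78.8 and 119.9. Srebf2, the transcription factor that regulates sterol genes, was at 216.8 CPM against 101.7 to 166.4. The differences were modest. Genes that are highest in EM2 have the same sign against all 5 tumours by definition. List medians were 0.54, 0.33, 0.25, 0.38 and 0.22 against E, EM1, EM3, M and Parental 4T1. Between 55.6% and 77.8% of the tested members were highest in EM2 under every alternative that was run, the 77.8% with TMM scaling, where 28.1% of all tested genes were.

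Chemokines were mixed. Cxcl10 and Cx3cl1, ligands for receptors on T cells and on monocytes and NK cells, were the 2 of 19 tested members highest in EM2. This share is below the 15.1% of all tested genes. Cx3cl1 was at 308.6 CPM in EM2, against 145.8 in E, 267.2 in EM1, 59.1 in EM3, 63.0 in M and 114.0 in Parental 4T1, so that EM1 lay close to EM2. Cxcl10 was at 103.1 CPM against 26.7, 99.0, 31.3, 45.6 and 24.2, with EM1 again close. Ccl2, the ligand that draws monocytes, was lowest in EM2 at 3.67 CPM, against 10.3 in E, 72.2 in EM1, 4.85 in EM3, 106.8 in M and 196.5 in Parental 4T1. Low Ccl2 was thus shared with EM3. Nos2, the inducible nitric oxide synthase, was at 114.4 CPM in EM2 and at 9.81 (M) to 79.8 (E) elsewhere.

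Several immediate early genes were at their lowest in EM2. None of 25 tested members was highest in EM2 and 9 were lowest (36.0%, against 11.3% of all tested genes), while 16 were neither. Egr1, a zinc-finger factor induced within minutes of a stimulus, was at 96.1 CPM in EM2 (93.4 to 98.8), against 268.5 in E, 258.6 in EM1, 337.2 in EM3, 673.0 in M and 270.5 in Parental 4T1. No other tumour came near the EM2 value, and the closest, EM1, was 1.34 higher on the log2 scale. Fos, the partner of Jun in AP-1, was at 357.6 CPM, against 1854, 999.3, 803.1, 855.7 and 513.5 in the same order. Jun was at 735.0 CPM against 923.2 to 2584 and Fosb at 767.5 against 839.8 to 2848. Junb was at 920.0 CPM in both EM2 and EM3, so it counts as lowest only by a difference far within counting error. The list medians were -0.61 against E, -0.34 against EM1, -0.24 against EM3, -0.72 against M and -0.21 against Parental 4T1. With TMM scaling 5 of 25 were lowest in EM2 (3.25% of all genes) and the medians against E and Parental 4T1 moved to -0.11 and -0.04. The log2 ratio of Egr1 closest to 0 was then -0.91, short of 2-fold.

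Some genes of the matrix, growth factor, Wnt and TGF-beta lists were low in EM2 against at least 4 tumours. Thbs1, a matrix protein that activates latent TGF-beta, was at 152.4 CPM in EM2, against 584.1 in E, 1002 in EM1, 358.0 in EM3, 558.4 in M and 211.5 in Parental 4T1. Ccn1, a matricellular protein, was at 362.2 CPM against 1193, 1747, 1122, 796.4 and 273.2, so Parental 4T1 was lower still. Pdgfb, the platelet-derived growth factor, was at 10.1 CPM against 102.2, 97.4, 1.84, 40.4 and 52.7, and Wnt10a at 20.3 against 74.96, 51.3, 12.1, 79.9 and 55.9. For both ligands EM3 was lower than EM2. Of 27 tested genes of the TGF-beta and BMP pathway 6 were lowest in EM2 (22.2%, against 11.3% of all tested genes) and 2 highest, but with TMM scaling 2 of 26 were lowest (3.25% of all tested genes) and 4 highest, and with median-of-ratios scaling 3 lowest and 4 highest. The receptor Tgfbr1 was at 112.3 CPM against 129.4 to 194.4, and the inhibitor Skil at 342.1 against 417.5 to 960.6. The list median against E turned from -0.07 to 0.40 with TMM scaling, so neither this balance nor the direction against E was stable. Of 6 tested Notch genes, the ligand Jag1 (52.1 CPM against 57.9 to 175.0) and the receptor Notch2 (195.2 against 243.8 to 311.4) were lowest in EM2. Over all tested genes 11.3% were lowest, and the Jag1 margin was small.

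Edil3, a secreted integrin ligand, was almost absent from EM2. It was at 0.281 CPM, from 14 UMIs in all 3283 cells (counting interval 0.154 to 0.471), against 13.8 in E, 34.6 in EM1, 12.3 in EM3, 69.2 in M and 15.98 in Parental 4T1. Macrophages of the EM2 library held 9.95 CPM and fibroblasts 19.5, so the tumour cells lay below both. Miga1, a mitochondrial outer membrane protein that promotes fusion, was at 8.45 CPM against 48.9, 28.8, 44.1, 63.0 and 49.0. Tmeff1, a membrane protein with follistatin-like domains, was at 10.2 CPM against 30.2 to 104.6, and Impact, an inhibitor of the amino acid sensor GCN2, at 12.1 CPM against 24.7 to 106.0. That all 5 other tumours were higher than EM2 for each of these genes follows from the rule that picked them. Further genes of low EM2 level were the actin regulator Enah (25.3 CPM against 42.8 to 151.7), the sulfiredoxin Srxn1 (116.4 against 167.8 to 448.2), Gm2a (36.6 against 61.8 to 98.9) and the peptide Ucn2 (61.3 against 89.3 to 211.4).

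Many of the lowest genes shared a chromosome. Genes were placed by symbol in the RefSeq table for 5763 of the tested genes. Of the 20 genes lowest in EM2, 7 lie on chromosome 12 (among them Sipa1l1, Strn3, Fos, Hbp1, Itsn2 and Rock2), which holds 3.35% of the tested genes with a chromosome, and 3 on chromosome 18 (Egr1, Impact and Rnmt), which holds 2.52%. On chromosome 12, 106 of 193 genes (54.9%) were lowest in EM2 of the 6 tumours, and on chromosome 18, 77 of 145 (53.1%), against 11.3% of all tested genes. After the median over all genes was subtracted, the chromosome 12 median was -0.48 against E, -0.51 against EM1, -0.37 against EM3, -0.26 against M and -0.26 against Parental 4T1. The chromosome 18 medians were -0.26, -0.28, -0.38, -0.37 and -0.32 in the same order. These were the 2 chromosomes whose median was at or below -0.25 against all 5 tumours, and none was at or above 0.25 against all 5. Rock2, a kinase that regulates actomyosin contraction, is an example from the 20 lowest genes and differed by more than the chromosome median. It was at 114.8 CPM in EM2 against 251.2 in E, 192.4 in EM1, 190.4 in EM3, 161.7 in M and 168.1 in Parental 4T1.

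Along chromosome 12 the difference was not even. When its genes were put in order and split into 4 blocks, the medians of the block nearest the start of the chromosome lay between -0.61 (EM1) and -0.30 (M), and those of the last block between -0.38 (E) and -0.03 (M). At the other end, 37.4% of tested genes on chromosome 15, 32.8% on 17, 32.1% on 9 and 31.9% on 19 were highest in EM2, against 15.1% of all tested genes. These shares were not computed with TMM scaling. Chromosome X stood out against M alone, with a median of 0.56. DNA was not measured here. The chromosomes were inspected after the values were seen.

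**Figure D2:**
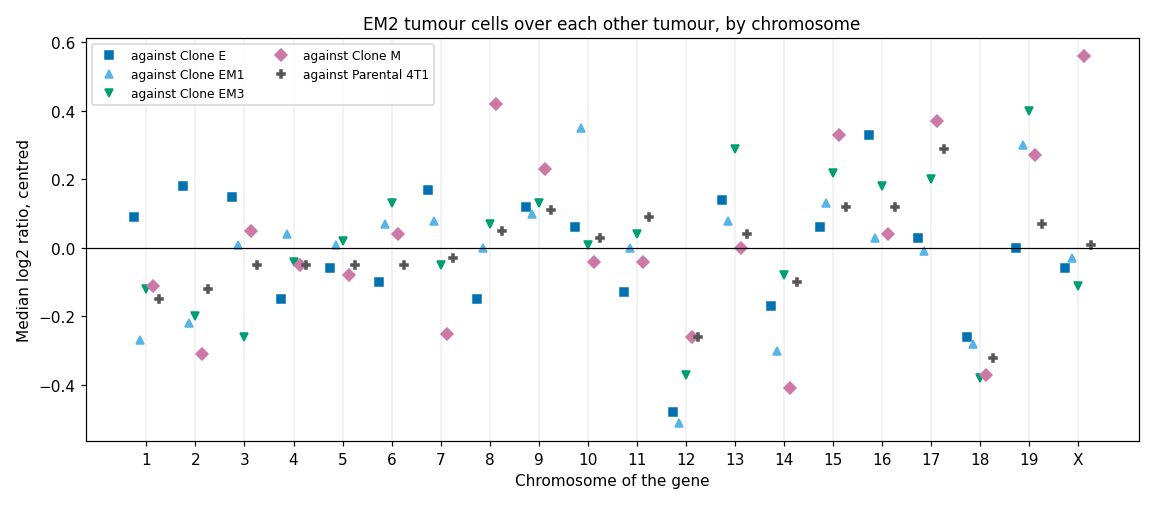
Median log2 ratio of (CPM + 10) of EM2 tumour cells over each other tumour for the tested genes of each chromosome, with the median over all genes subtracted. The 5 symbols per chromosome are the 5 other tumours, and all lie between -0.51 and -0.26 for chromosome 12 and between -0.38 and -0.26 for chromosome 18.

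Against single tumours EM2 differed in more genes. Against E, 203 of 5401 tested genes were at least 2-fold higher in EM2 (3.76%) and 338 were lower (6.26%). The genes furthest below E were of epithelial junctions and basement membrane: the claudin Cldn4 (90.4 CPM in EM2, 4671 in E), Lama3 (9.05 and 580.0), Krt14 (11.1 and 502.9), Cldn3 (7.02 and 389.4), E-cadherin Cdh1 (24.1 and 746.3) and the epithelial splicing factor Esrp1 (1.33 and 240.1). Among the genes furthest above E were Serpine2 (1067 and 3.50 CPM), Bmp7 (109.5 and 1.95), Emp3 (574.8 and 55.9), the extracellular superoxide dismutase Sod3 (85.5 and 3.31) and S100a4 (3159 and 454.2). Other measures moved with this comparison. The median mitochondrial percent of the tumour cells was 0.395 in EM2 and 1.79 in E, and genes of the mitochondrial genome such as mt-Co1 and mt-Nd1 were among the lower genes. Summed markers were also lower in EM2 than in E, at 35.46 and 221.0 CPM for all leukocytes, 118.4 and 451.7 for macrophages and 181.8 and 843.0 for granulocytes, and C1qa, Lyz2, Tyrobp and S100a8 were among the lower genes. Their part in the count was not tested. With TMM scaling the split turned, to 959 higher and 153 lower, since this scaling moves the median ratio of all genes against E by 0.45.

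Against EM1, 56 of 5120 genes were higher (1.09%) and 96 lower (1.88%). The neutrophil chemokine Cxcl2 was at 680.4 CPM in EM2 and 138.3 in EM1, the ectoenzyme Enpp1 at 74.2 and 11.9, the calcium pump Atp2c2 at 55.1 and 8.61 and the keratin Krt19 at 94.1 and 22.9. The Krt19 call rested on 27 EM2 cells described further on, without which its log2 ratio went from 1.66 to 0.76, under 2-fold. Some acute phase and matrix genes were lower: the lipopolysaccharide-binding protein Lbp (3.07 CPM in EM2, 163.0 in EM1), Saa3 (20.8 and 212.3), Saa2 (1.43 and 66.2), biglycan Bgn (11.2 and 160.3) and elastin Eln (1.54 and 82.4). Of the acute phase list 5 of 8 genes tested against EM1 were lower in EM2 and none higher, and of the matrix list 5 of 21 were lower and none higher.

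Against EM3, 73 of 5034 genes were higher (1.45%) and 39 lower (0.775%). Here EM2 had the epithelial genes: Krt7 (164.7 CPM in EM2, 6.51 in EM3), Epcam (120.4 and 4.78), the basement membrane anchor Lad1 (174.9 and 11.2) and desmoplakin Dsp (128.4 and 11.3). The growth factor receptor Fgfr1 (80.8 and 0.693 CPM) and the small heat shock protein Hspb1 (60.4 and 0.520) were nearly absent from EM3. Lower in EM2 were the endothelial adhesion molecule gene Sele (7.345 CPM, 76.5 in EM3), the cytokine Tslp (125.9 and 460.2), arginase Arg1 (8.55 and 53.7) and the integrin chain Itgb2 (24.8 and 106.3). Macrophage markers moved with the last of these, at a summed 118.4 CPM in EM2 tumour cells and 358.2 in those of EM3, and C1qa (29.9 and 86.9) and Lyz2 (32.7 and 120.7) were themselves among the lower genes. The part of macrophage RNA in these differences was not tested.

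Against M, 168 of 5271 genes were higher (3.19%) and 150 lower (2.85%). The magnesium channel Trpm6 was at 138.2 CPM in EM2 and 5.93 in M, Dsp at 128.4 and 5.35, the membrane protease Tmprss11e at 169.2 and 9.96 and the adhesion molecule Alcam at 93.3 and 5.12. Lower were Itih2 (0.502 CPM in EM2, 103.4 in M), the glycoprotein Gpnmb (3.31 and 133.7), kappa-casein Csn3 (1.75 and 102.5) and Trp53i11 (57.0 and 609.6). Parental 4T1 was the tumour with the fewest differences in total, with 51 of 5009 genes higher in EM2 (1.02%) and 37 lower (0.739%). F13a1, the coagulation factor XIII A chain, was at 455.5 CPM in EM2 and 82.5 in Parental 4T1, and Sod3 at 85.5 and 5.81. Ccl2 was lower (3.67 CPM, 196.5 in Parental 4T1), with the corticotropin-releasing hormone binding protein Crhbp (4.62 and 69.0) and the protein C receptor Procr (129.7 and 642.9).

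By list medians EM2 lay between the extremes on the epithelial to mesenchymal axis. By summed level of the mesenchymal list it was highest, at 37794 CPM, with EM3 close at 37459. The sums were 33051 in EM1, 28699.9 in Parental 4T1, 24134 in M and 21250.1 in E. Of 19 tested epithelial junction and identity genes, none was highest in EM2 and 1 was lowest. Over these 19 genes the list medians were -2.30 against E, -0.42 against Parental 4T1, -0.24 against EM1, 0.31 against M and 0.69 against EM3. Only 8 of the 19 reached the floor in EM2 or EM3, and over those 8 the median against EM3 was 1.74. All 19 reached it in EM2 or E. Genes that did so through E alone are lower in EM2 by that rule, so the -2.30 follows in part from the floor. Of the 11 tested mesenchymal genes, 3 (27.3%, against 15.1% of all tested genes) were highest in EM2, and the list medians were 0.49 against E and 0.30 against Parental 4T1 but -0.33 against EM1, -0.24 against M and -0.21 against EM3. The share of all tested genes was larger with TMM and median-of-ratios scaling, as given above, so no excess is read from these 3 genes. The 3 genes were fibronectin Fn1 (15164 CPM against 5018 to 14257), S100a4 (3159 against 454.2 to 2339) and Foxc2 (65.7 against 27.2 to 56.5). Vimentin was at 16065 CPM in EM2, below EM3 (19062) and above the other tumours, where E had 4420. The transcription factor Snai1 was at 143.9 CPM, in the middle of a range from 100.3 (Parental 4T1) to 303.3 (M), and Twist1 at 317.4 CPM in a range from 182.8 (E) to 513.6 (EM1). EM2 held Krt8 and Krt18 within 2-fold of their levels in E together with vimentin and fibronectin at levels near or above those of EM3. The other 4 of the 6 keratins tested against E were at least 2-fold lower in EM2, and the list median was -2.01. Krt14 and Krt17 were below the floor in EM2, so as genes tested against E they could only be lower. The keratin list summed to 4077 CPM in EM2, near EM1 (3892) and Parental 4T1 (3687), against 5929.6 in E, 2128 in EM3 and 2002 in M.

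**Figure D3:**
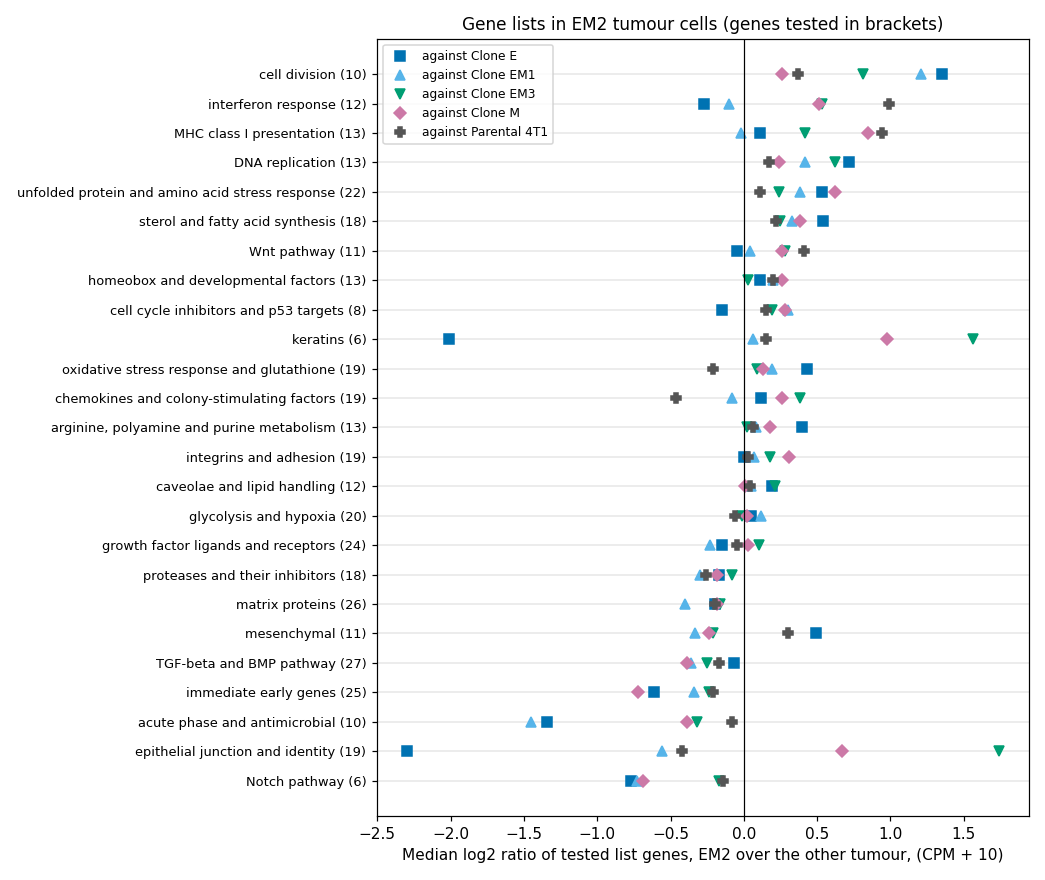
Median log2 ratio of (CPM + 10) of EM2 over each other tumour for 25 gene lists, sorted by the median of the 5 medians, with the number of tested genes in brackets. Cell division lies to the right of 0 against all 5 tumours (0.26 to 1.35), whereas the epithelial list runs from -2.30 over 19 genes against E to 1.74 over 8 genes against EM3, since each median covers the genes that reach the floor in that pair of tumours.

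Of 13 tested MHC class I genes 2 were at least 2-fold higher in EM2 than in M (3.19% of all tested genes were) and 5 than in Parental 4T1 (1.02%). Of the 13, 5 were highest in EM2 (38.5%, against 15.1% of all tested genes and, with TMM scaling, 38.5% against 28.1%) and none lowest, with list medians of 0.85 against M and 0.94 against Parental 4T1, 0.42 against EM3, 0.11 against E and -0.02 against EM1. The median against E rested on the scaling, at 0.60 with TMM and 0.43 with median-of-ratios. The peptide-loading factor Tapbp was at 1021 CPM in EM2 against 528.4 to 893.3, and the immunoproteasome subunit Psmb8 at 609.5 against 249.7 to 517.1. The heavy chain H2-K1 was at 884.8 CPM in EM2, below E (939.0) and EM1 (1100) and above EM3 (738.6), M (483.9) and Parental 4T1 (525.1). The interferon list had 1 of 12 tested members highest in EM2 (8.33%, below the 15.1% of all tested genes), the GTPase Igtp (66.8 CPM against 9.93 to 57.3). In single comparisons 4 of 8 tested members were at least 2-fold higher in EM2 than in Parental 4T1 (1.02% of all tested genes were). The same held for 2 of 8 against EM3 (1.45%) and 2 of 10 against M (3.19%). Against E (11 tested) and EM1 (9 tested) none was higher and 1 was lower in each. List medians were 0.99, 0.53, 0.51, -0.27 and -0.10 against Parental 4T1, EM3, M, E and EM1.

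MHC class II genes, which are normally a property of antigen-presenting cells and can be induced by interferon-gamma through the factor Ciita, were lowest in M and Parental 4T1. The invariant chain Cd74 was at 656.8 CPM in EM2, against 1152 in E, 1393 in EM1, 537.1 in EM3, 69.9 in M and 83.2 in Parental 4T1. M and Parental 4T1 stood apart as low. H2-Aa, H2-Ab1 and H2-Eb1 were at 277.8, 142.6 and 185.9 CPM in EM2. Droplet libraries carry free RNA from lysed cells, and the summed CPM of the 4 genes in EM2 tumour cells (1263) was not above that in the T and NK cells of the same library (1712), in its endothelial cells (1729) or in its granulocytes (1914). The thinned share of cells with a UMI of the 4 genes was 71.9% in tumour cells (96.4% unthinned, median 14740 UMIs) and 75.3% in the 85 T and NK cells deep enough to thin (85.9% unthinned, median 1097 UMIs). In fibroblasts the summed level was 1173 CPM and the thinned share 51.9% (median 11242 UMIs). By CPM and thinned share the EM2 tumour cells thus lay within the range of the other classes, above the fibroblasts and below the T and NK cells. The classes differed in depth, and the order per cell was another. Cd74 UMIs per cell were 9.97 in tumour cells, 6.32 in fibroblasts, 5.55 in endothelial cells, 0.921 in T and NK cells, 0.920 in granulocytes and 87.6 in macrophages. C1qa UMIs per cell were 0.454, 2.00, 0.740, 0.317, 0.363 and 37.5 in the same order. The part of free RNA in these values was not tested. The ratio of Cd74 to the macrophage transcript C1qa differed between classes, at 22.0 Cd74 UMIs per C1qa UMI in tumour cells, 2.34 in macrophages, 2.90 in T and NK cells, 2.54 in granulocytes, 3.16 in fibroblasts and 7.51 in endothelial cells. Dendritic cells, with 27508 CPM of Cd74 and 227.9 of C1qa, and B cells, with 12844 and 273.4, had higher ratios than the tumour cells. Among tumour cells of the other tumours the ratio ran from 2.01 in M to 82.7 in EM1. It was 23.5 in the tumour cells with no Ptprc UMI. Ciita was at 11.3 CPM in EM2 tumour cells and 13.1 in macrophages, but at 73.05 in dendritic cells and 65.80 in B cells of that library. A Ciita UMI was seen in 3.37% of thinned tumour cells. In the tumour cells C1qa was at 29.9 CPM, 0.480% of its macrophage level. C1qa and Ciita were chosen as comparators after the values were seen.

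A small set of EM2 tumour cells had a high share of epithelial transcripts. In 27 of 3283 cells (0.822%, exact interval 0.543 to 1.19) the 28-gene epithelial list made up at least 1% of the UMIs, with a range of 1.04% to 5.14% and a median of 2.56%. The median over all EM2 tumour cells was 0.136%. Between 0.5% and 1% lay 12 cells, and 4 of the 27 lay between 1% and 1.5%. The 1% limit was set after the values were seen, and the list members describe how the cells were chosen. The same limit was reached by 327 E cells (42.5%), 32 of EM1, 8 of M and 81 of Parental 4T1. In EM3 it was reached by none of 1948 cells, for which the exact upper bound is 0.189%.

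These 27 cells held 0.452% of the UMIs of EM2 tumour cells, but 73.8% of their Cldn4 UMIs and 51.5% of their Krt19 UMIs. Of the 28 list genes 4 had at least 50% of their UMIs in these cells, whereas Epcam had 9.60%, Cdh1 27.8% and Cldn7 33.1%. Without them the EM2 level of Cldn4 went from 90.4 to 23.8 CPM and that of Krt19 from 94.1 to 45.8. The cells had fewer UMIs than the rest (median 6089 against 14776). Genes that the epithelial list does not hold differed as well, among them markers of other cell types. The macrophage genes C1qa (350.6 CPM against 28.45, a UMI in 6 of the 27 cells), C1qb (279.6 against 16.17) and Lyz2 (186.4 against 32.02) were higher in the 27 cells, as was the fibroblast proteoglycan Dcn (261.8 against 5.726). Other fibroblast markers were mixed. Col1a1 was higher in the 27 cells (106.5 CPM against 43.59, counting interval 68.24 to 158.5, a UMI in 15 of them). Col1a2 was at 26.63 CPM against 25.83, and the counting interval of Col3a1 in the 27 cells (27.5 to 93.0) included the 29.88 of the rest. Pdgfra was lower in the 27 (8.876 against 113.9), and Lum had a UMI in 1 of them. A Ptprc UMI was seen in 2 of the 27, and the part of other cells in these values was not tested. The prolactin receptor Prlr had a UMI in 17 of the 27 cells and in 8 of the other 3256, and the growth factor Ptn was at 2716 CPM against 0.262. The progesterone receptor Pgr was at 150.9 CPM against 0.101 and the oestrogen receptor Esr1 at 190.8 against 22.98. Pgr, Prlr and Ptn were thus almost restricted to these cells, which held 87.2%, 94.1% and 97.9% of their UMIs among EM2 tumour cells.

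Genes of the bulk of EM2 tumour cells were low in the 27. Vimentin was at 954.2 CPM against 16133, Serpine2 at 35.5 against 1071, the chromatin factor Hmga2 at 22.2 against 612.4, F13a1 at 4.44 against 457.6 and the prostaglandin synthase Ptgs2 at 97.6 against 2919.9. A Serpine2 UMI was seen in 7 of the 27 cells. The milk genes Csn2 and Wap had no UMI in them, and Csn3 was at 88.8 CPM against 1.35. Krt8 was higher in the 27 cells (14512 CPM against 2666). Whether these cells come from the implanted clone or from the host gland was not tested, and they are left without a name. Leaving out these 27 cells alone, with every cell of the other tumours kept, gave 205 higher and 339 lower genes against E in place of 203 and 338, and it moved no count of genes against a single other tumour by more than 1.5 times. The medians of the 19 epithelial genes did move, from 0.31 to 0.16 against M, from -0.24 to -0.38 against EM1 and from 0.69 to 0.50 against EM3.

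**Figure D4:**
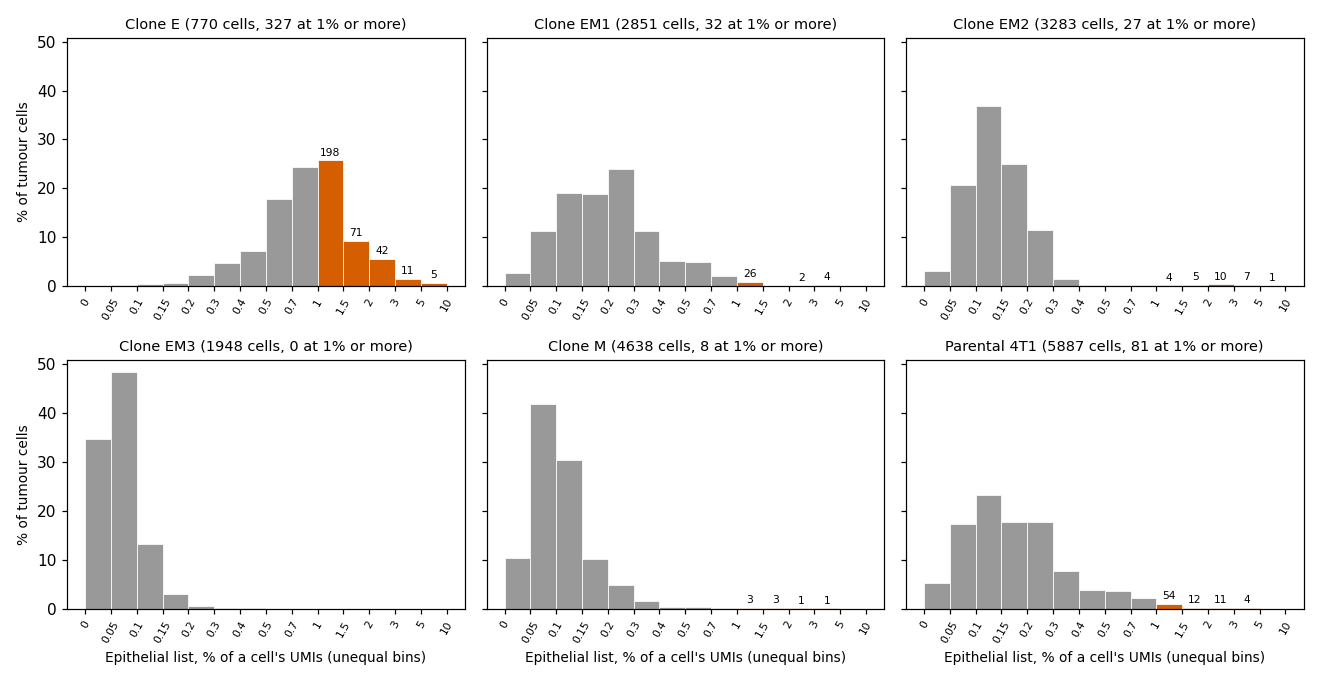
Share of the annotated tumour cells of each tumour (vertical axis, percent) by the percent of a cell's UMIs that fall in the epithelial list (horizontal axis, unequal bins). Orange bars are cells at 1% or more, with their number above, and the 27 EM2 cells lie apart from the bulk of EM2, which has its median at 0.136%.

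The spread among EM2 tumour cells was measured with the Fano factor, the variance of a gene's UMIs over its mean, on cells thinned to 3000 UMIs. It is 1 for counting noise alone. Of 6008 genes with a mean of at least 0.1 UMI per thinned EM2 cell, 38 had a Fano factor of at least 5, and the median was 1.05. The same limit was passed by 88 genes in E and by 39 to 55 in the other 4 tumours. Of 4990 genes measured this way in all 6 tumours, 242 had their highest Fano factor in EM2 and 1475 their lowest. The number past the limit depends on the thinning depth, with 17 genes at 1500 UMIs and 82 at 6000.

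The largest Fano factors were of genes held by few cells. S100a9 (55.7) and S100a8 (41.7), calprotectin chains of granulocytes, came largely from 7 cells that held 52.2% of their UMIs, and 5 of the 7 had a Ptprc UMI. In cells with no Ptprc UMI the S100a9 value was 12.4. With the cells at 1% or more epithelial UMIs left out (3152 thinned cells in place of 3176), Cldn4 went from 51.9 to 3.79 and Krt19 from 31.7 to 1.48. Cldn4 had a UMI in 5.45% of thinned EM2 cells (11.6% unthinned) and in 0.599% of macrophages. Col1a2 (14.7), a fibroblast collagen, had a UMI in 8.12% of thinned EM2 tumour cells, below its 18% in macrophages, and 72% of its UMIs lay in the top 5% of cells. In 1 EM2 tumour cell collagen genes made up at least 1% of the UMIs. The part of free RNA or of fibroblast RNA in the Col1a2 values was not tested.

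Another set of variable genes was spread over many cells. Fibronectin Fn1 (25.4) had a UMI in 99.7% of cells and osteopontin Spp1 (13.8) in 98.9%, and across cells the 2 genes had a rank correlation of 0.67 in EM2, against 0.42 to 0.68 in the other tumours. The inducible gene Ier3 (14.3) had a UMI in 96.0% of cells and the metallothionein Mt2 (10.9) in 88.0%. The neutrophil chemokines Cxcl1 and Cxcl2 correlated at 0.61 in EM2 and Parental 4T1, and at 0.20 to 0.41 in the other 4, and Cxcl1 correlated with the granulocyte growth factor Csf3 at 0.60. S100a4 and Serpine2 had a correlation of -0.42. These are Spearman correlations over 3176 thinned cells of 1 library, which share its depth and free RNA, and they are given as a description with pairs chosen after the values were seen.

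Immediate early and stress genes were the third set. Fos had a Fano factor of 24.5 and a UMI in 21.2% of EM2 cells, and the 5% of cells with most Fos held 80.3% of its UMIs. Hspa1b (17.0), Atf3 (15.7), Jun (13.9), Ccn1 (12.6), Dusp1 (11.7) and Fosb (11.2) were of this kind. Fos and Atf3 correlated at 0.41 across cells, and Atf3 and Csf3 at -0.26. The share of cells with Fos was the lowest of the 6 tumours, as the others had 32.4% to 48.4%. The unthinned share in EM2 was 47.5%. EM2 macrophages, with a Fos UMI in 67.3% of thinned cells, were above the tumour cells.

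Some genes varied more in EM2 than in any other tumour. The mRNA decay factor Zfp36 had a Fano factor of 10.8 against 4.30 to 7.60, the growth arrest gene Gadd45g 7.88 against 2.97 to 5.97, Klf10 2.69 against 1.72 to 2.06, the cytokine feedback inhibitor Socs3 4.46 against 1.80 to 3.47, and Ripk2 1.33 against 1.07 to 1.11. Ripk2 thus had both the highest level and the highest spread in EM2. Myc varied least in EM2, with 2.00 against 2.69 to 3.92, as did the matrix phosphoprotein Dmp1 (1.67 against 2.49 to 3.48), Tpt1 (1.56 against 2.02 to 6.15) and the nuclear receptor Nr4a2 (1.88 against 2.42 to 3.74). The Fano factor grows with a gene's mean, and a higher mean in EM2 moves with a higher value for Ripk2.

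**Figure D5:**
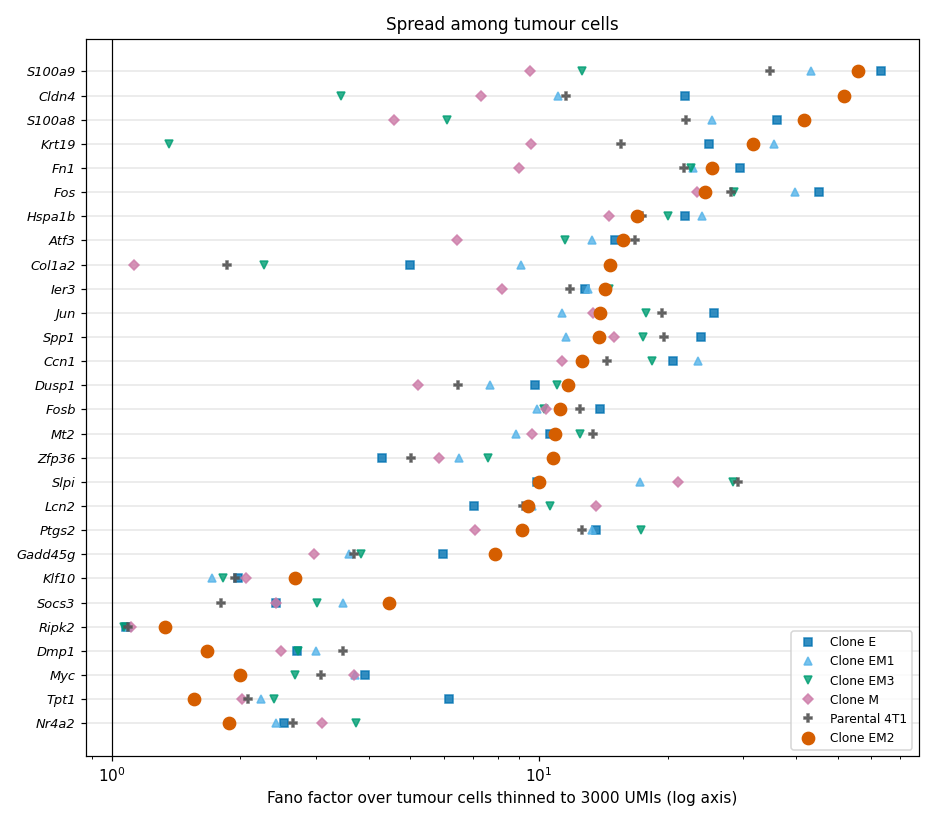
Fano factor on a log axis over tumour cells thinned to 3000 UMIs, for the 20 genes of highest value in EM2 and for genes furthest above or below all other tumours. Large orange circles are EM2, and the vertical line at 1 marks counting noise alone. Cldn4 in EM2 (51.9) is to the right of every other tumour, and Myc (2.00) to the left.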

How the data were processed

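The authors deposited, for each library, raw UMI counts per gene and cell and a second table with each cell's annotation and mitochondrial percent, per the file headers. The submitters' processing notes name Cell Ranger and mm10; versions, cell filters and any doublet removal are not given in the sources used here. A fixed-RNA preparation kit and 3′ reagents both stand in the labels' protocols, so the labels alone do not settle the chemistry. Each Total library lists the same 19369 genes, some under names that begin with DEPRECATED. Bead barcodes were shared between libraries that shared no whole cell barcode. The chemistry was not tested further.

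Doublets were scored against 2 simulated pairs per cell (2000 variable genes, 30 components, expected share 6%), and cells above 0.259, the median of the valleys of the 6 Total libraries, were left out. Most cells of the class the authors call Unknown scored as doublets (143 of 153). Counts were summed over tumour cells and scaled to CPM. Genes with at least 50 CPM in at least 1 tumour compared were compared for a 2-fold difference of CPM + 10 and are called tested genes. With 1 tumour per group there is no p-value. Counts have exact Poisson and shares exact Clopper-Pearson intervals at 95%, which cover counting error only. Shares and Fano factors used cells thinned to 3000 UMIs. The fold calls were tried on simulated counts with counting noise only and planted changes larger than 2-fold. That check does not cover variation between tumours. The Fano factor was tried on simulated cells.

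The text names the 4 tumour markers, the 20 highest and 20 lowest genes against every other tumour, the 6 furthest in each direction against each single tumour, list members past 2-fold against at least 4 of 5 tumours or otherwise the most abundant ones, and the genes of highest or most distinct Fano factor. Other genes named from the 25 lists, the count of genes highest or lowest of 6, the chromosomes and the 10-UMI and 1% limits were chosen after values were seen, and the members and lists were chosen with earlier results of these data known. Promoters and chromosomes are from RefSeq (GRCm38.p6), matched by symbol for 19105 of 19369 genes. Some genes that meet these rules are not reported here. Alternatives were other pseudocounts, floors and scalings, the mean of single-cell CPM, other sets of cells and other thinning depths. Python 3.11.15, numpy 2.4.6, pandas 2.3.3, scipy 1.17.1, scikit-learn 1.9.0, matplotlib 3.10.9, R 4.3.3 and edgeR 4.0.16 (TMM factors only) were used.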

Additional observations from a re-analysis of the deposited data

How the results depend on the processing

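Counts of genes at least 2-fold from another tumour depended on the scaling, most against E, and on how low values were handled. With 50 CPM added, 1 gene (Cebpd) was higher than in every other tumour and 1 (Egr1) lower, the counts of higher and lower genes were 71 and 160 against E, 13 and 55 against EM1, 27 and 23 against EM3, 63 and 66 against M and 21 and 16 against Parental 4T1, and 4 list genes passed against at least 4 of 5 tumours in place of 10. With a floor of 20 CPM, 7 genes were higher than in every other tumour, 593 were lower than in E, 90 higher than in EM1, and 79 and 57 higher and lower than in Parental 4T1. With no floor the counts were 8 genes higher than in every other tumour, 698 lower than in E, 94 and 152 against EM1, 112 and 59 against EM3, 254 and 252 against M and 80 and 64 against Parental 4T1. TMM scaling gave 7 genes higher than in every other tumour, 959 higher and 153 lower than in E, and 89 higher than in Parental 4T1, and median-of-ratios scaling 566 higher and 199 lower than in E. TMM moved the median ratio of all genes by 0.45 against E, 0.15 against Parental 4T1 and 0.10 against M, and median-of-ratios by 0.29, 0.08 and 0.11. With the mean of single-cell CPM 2 genes were higher than in every other tumour and 4 list genes passed, and with only cells of 5000 to 20000 UMIs 2 genes were higher than in every other tumour, 37 higher than in EM1 and 6 list genes passed. The number of genes with a Fano factor of at least 5 went from 38 to 17 with cells thinned to 1500 UMIs and to 82 with 6000. Of 161 values of named genes none that passed 2-fold changed sign under any alternative, and 15 changed their side of the 2-fold limit with 50 CPM added. The centred medians of chromosomes 12 and 18 kept their sign against all 5 tumours under every alternative, with the smallest sizes at no floor (-0.03 and -0.02). The cause of these moves was not tested beyond the shifts of the median.

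No paired analysis was possible because each group holds 1 tumour. No replicate was left out. Depth limits E most, with 770 tumour cells and 5136248 UMIs against 49826834 in EM2.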
